A study of Homo sapiens with 8 samples.

Results

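The human mitochondrial genome gave 546 of the 1118316 peaks in 4 eCLIP peak lists of the RNA-binding protein RBFOX2 in HEK293T cells. These 546 peaks are every peak placed on the mitochondrial chromosome (chrM), with the strands kept apart, and no fold or p-value was used to choose them. HEK293T is a human embryonic kidney cell line. eCLIP fixes proteins to the RNA in contact with them by ultraviolet light, pulls one protein down with an antibody (IP), and sequences the attached RNA beside a small part of the same lysate kept as input. The series held 4 RBFOX2 IP samples and 4 input samples, numbered 1 to 4 in each group, all of HEK293T cells, and the labels name no treatment other than UV crosslinking, which all of them had. Each deposited list set 1 IP against the input of the same number, so the replicate here is the list, and n = 4 throughout. The labels do not say whether the 4 samples came from separate cultures, so the spread between lists may be technical, and no IP with a control antibody was used here.

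RBFOX2 is a nuclear and cytoplasmic regulator of splicing that recognises a short motif in messenger RNA precursors. The mitochondrial genome is a small circle inside the organelle. Both of its strands are transcribed into long precursors, from which tRNAs are cut out, and this cutting releases most of the rRNAs and mRNAs between them. It encodes the small and large ribosomal RNAs of the mitochondrial ribosome, a set of tRNAs, and mRNAs for subunits of respiratory complexes I, III and IV and of the ATP synthase (complex V). Mitochondrial transcripts are abundant in most cells and have no introns, and RBFOX2 has no textbook role on them. Genes are named here as in the RefSeq table (RNR1, ND1, TRNM), without the MT- prefix often used.

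Each peak carries 2 deposited values. One was read as the log2 of IP over input, so that 0 means equal and a negative value means less in the IP than in the input. The other was taken for a −log10 p-value, which was 0 for each mitochondrial peak with a negative fold, so only enrichment over the input was scored. The scaling between IP and input and the read counts were not given in the sources used here. The depth behind a peak is therefore unknown, and a low fold says that an RNA took a smaller part of the IP than of the input, not how much of it was present.

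Mitochondrial peaks were a small part of each list, short, repeated between lists and nearly all below the input. The lists held 130, 145, 141 and 130 of them for replicates 1 to 4, out of 267691, 281701, 288305 and 280619 peaks. This was 0.0488% ± 0.00211 (SD, n = 4 lists) of a list. They lay between positions 589 and 15996 of chrM, and 527 were on the plus strand and 19 on the minus strand. Together they covered 4593, 4730, 4771 and 4721 nt. Median lengths were 29.5, 23, 25 and 29 nt, against 50, 50, 48 and 47 nt for nuclear peaks. Of the mitochondrial peaks, 56.3% ± 5.04 (SD, n = 4) touched the end of a neighbouring peak, against 3.44% ± 0.122 (SD, n = 4) of nuclear peaks, so peaks of 1 gene are often pieces of 1 covered stretch and are not independent of each other.

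All 546 midpoints fell in an annotated mitochondrial gene on the gene's own strand, and 0 fell in 2 genes. Of the 37 mitochondrial genes, 23 had a peak in at least 1 list and 18 had one in all 4 lists. The 18 are both rRNAs, all 13 mRNAs and 3 of the tRNAs, namely TRNF, TRNM and TRNP. No list had a peak in 14 of the 22 tRNA genes. Of the 9 genes on the minus strand, 7 had no peak, and the exceptions were ND6, a complex I subunit, and TRNP, the proline tRNA.

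**Figure D1:**
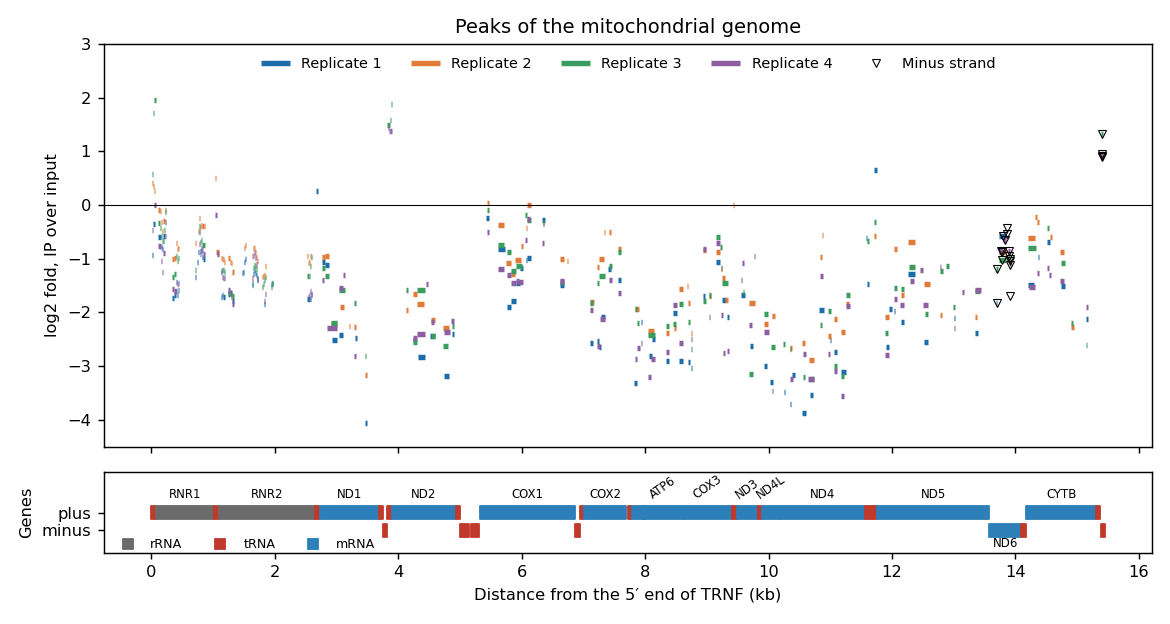
Position of each mitochondrial peak (horizontal axis, kb from the 5′ end of TRNF) against its log2 fold of IP over input (vertical axis). Each bar is 1 peak, coloured by replicate, triangles mark the 19 minus-strand peaks, and the lower panel shows the genes by strand and RNA class. Bars of the 4 lists lie over each other and nearly all sit below 0, with the few high ones at TRNF, TRNM and TRNP.

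The mean log2 fold of mitochondrial peaks was -1.67, -1.08, -1.23 and -1.5 in replicates 1 to 4. The mean of nuclear peaks was 0.21, 0.18, 0.13 and 0.17. The list means of the groups did not overlap, although the folds of single peaks did. The mitochondrial chromosome had the lowest mean of 24 chromosomes in each list. The next lowest, chromosome 13, averaged 0.05 ± 0.03 (SD, n = 4). The difference between mitochondrial and nuclear peaks was -1.54 ± 0.28 (SD, n = 4), below 0 in 4 of 4 lists. An exact two-sided sign-flip permutation test gave p = 0.13, the smallest it can give with 4 lists, so no comparison of this kind can pass 0.05 here. Against nuclear peaks outside the 15 commonest folds of each list, which averaged 0.87 ± 0.09 (SD, n = 4), the difference was -2.24. Those 15 values, near the logs of small whole-number ratios, held 91.4% ± 0.276 (SD, n = 4) of nuclear peaks but 2.68% ± 1.89 (SD, n = 4) of mitochondrial ones.

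A log2 fold below 0 was found for 520 of the 546 peaks, 126, 136, 132 and 126 by list, where 45.3% of all peaks in the series lie below 0. The share of nuclear peaks below 0 was 65.1%, 24.9%, 25.7% and 67.1% by list, while the mitochondrial share was 95.3% ± 1.86 (SD, n = 4). Many nuclear peaks sit at a common fold just beside 0, below it in replicates 1 and 4 and above it in replicates 2 and 3. The nuclear share at or below -0.02 was 24.5%, 24.9%, 25.7% and 24.7%, and at or below 0.02 it was 65.1%, 66.5%, 68.4% and 67.1%. The swing at 0, and with it the 45.3%, therefore depends on which side of 0 that fold fell. At or below -1 there were 366 peaks, 100, 71, 98 and 97 by list, or 67.5% ± 12.7 (SD, n = 4) of a list's mitochondrial peaks, where 13.7% of all peaks in the series lie at or below -1. That limit falls on one of the commonest nuclear folds, and the nuclear share at or below it swung between 6.95% and 20.7% by list. A second limit of -1.2, tried after this was seen, held 306 mitochondrial peaks, or 56.7% ± 16.2 (SD, n = 4), where 6.99% of all peaks lie at or below it. Both limits were chosen with the data in view, and the mitochondrial share was above the nuclear share in each list under both.

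**Figure D2:**
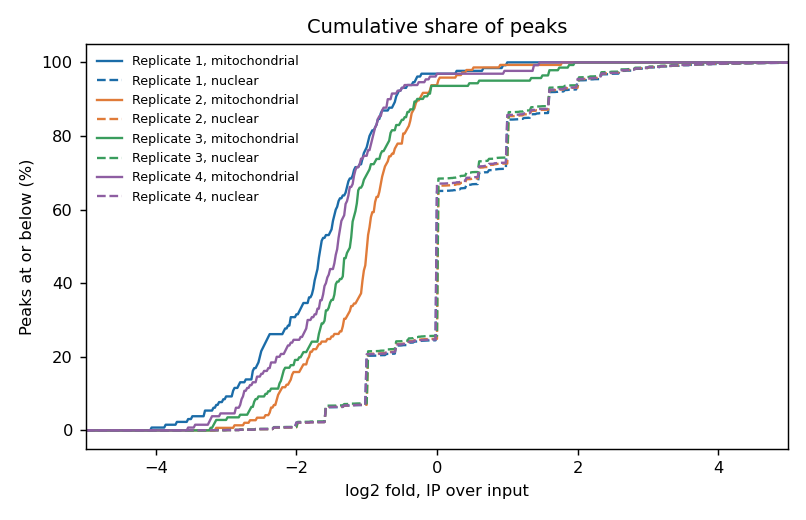
Cumulative share of peaks (vertical axis, percent) at or below each log2 fold of IP over input (horizontal axis), with solid lines for mitochondrial and dashed lines for nuclear peaks, coloured by replicate. The mitochondrial curves rise well to the left of 0, and the nuclear curves climb in steps at the commonest folds.

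At the limits customary for eCLIP, a log2 fold of at least 3 with a −log10 p of at least 3, 0 of the 546 mitochondrial peaks were enriched, where 0.818% of all peaks were. The labels state no limit of their own. When the fold limit was lowered to 1 with the same p limit, 3 mitochondrial peaks passed, where 1.11% of all peaks did. All 3 were in tRNA genes and in replicate 3. TRNF, the phenylalanine tRNA, held a pair of them, chrM:613-621 at a log2 fold of 1.72 and a −log10 p of 5.07, and chrM:622-647 at 1.95 and 5.65. The remaining one was in TRNP, at chrM:15964-15991, with 1.32 and 5.35. The TRNP peak of replicate 4, at 0.95 and 3.21, passed the p limit alone. No list other than replicate 3 had a peak past both of the lower limits.

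**Figure D3:**
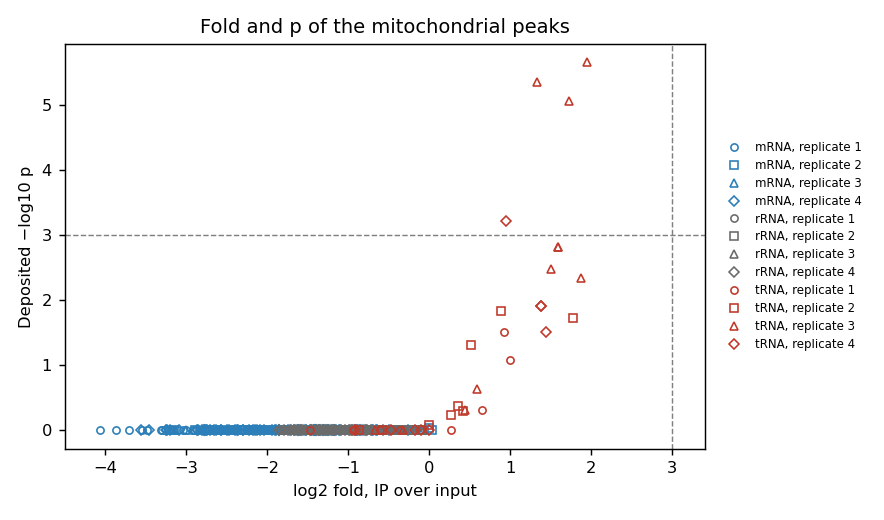
Deposited −log10 p (vertical axis) against log2 fold of IP over input (horizontal axis) for the 546 mitochondrial peaks, coloured by RNA class with a symbol for each replicate; dashed lines mark the limits of 3. The mRNA and rRNA peaks lie along the bottom left, and the 4 peaks above the horizontal line are all tRNA peaks.

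The 3 RNA classes were ordered in the same way in every list, with tRNA highest and mRNA lowest. Peaks in tRNA genes (37 peaks) averaged -0.07, 0.31, 1.05 and 0.39 in replicates 1 to 4. Peaks in rRNA genes (217 peaks) averaged -1.28, -0.83, -1.09 and -1.26. Peaks in mRNA genes (292 peaks) averaged -2.12, -1.48, -1.68 and -1.87. The tRNA values were above all rRNA and mRNA values, and the lowest rRNA value was above the highest mRNA value. Peaks of tRNA genes were above those of mRNA genes by 2.21 ± 0.40 and above those of rRNA genes by 1.54 ± 0.47, and rRNA above mRNA by 0.67 ± 0.12 (SD, n = 4). Each of these 3 differences had the same sign in 4 of 4 lists, with an exact sign-flip p of 0.13, adjusted p = 0.13 over the 3 pairs. At or below -1 lay 80.8% of mRNA peaks, 59.4% of rRNA peaks and 2.7% of tRNA peaks, against the 13.7% of all peaks.

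The 2 ribosomal RNA genes held more peaks than any other mitochondrial gene. RNR1, the RNA of the small subunit (chrM:648-1601, plus strand), had 84 peaks with means of -0.98, -0.47, -0.73 and -1.06. RNR2, the RNA of the large subunit (chrM:1671-3229, plus strand), had 133 peaks with means of -1.51, -1.03, -1.33 and -1.38. RNR1 was the higher of the pair in 4 of 4 lists, by 0.50 ± 0.12 (SD, n = 4; exact sign-flip p = 0.13), although their ranges over lists overlapped. All 217 rRNA peaks were below 0, from -1.85 to -0.09, and their median length was 11 nt. RNR1 was not even along its length. Its peaks fell in 3 stretches, which averaged -0.56 ± 0.29 at chrM:691-815, -1.28 ± 0.35 at chrM:920-1020 and -0.76 ± 0.22 at chrM:1284-1443 (SD, n = 4).

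The tRNAs held 24 of the 26 mitochondrial peaks at or above 0. TRNM, the methionine tRNA that serves both start and internal codons (chrM:4402-4469, plus strand), was the highest mitochondrial gene with peaks in all 4 lists, at 1.00, 1.77, 1.64 and 1.40. Its 9 peaks were all above 0, and its mean was above that of TRNF in each list. TRNP (chrM:15956-16023, minus strand) was at 0.92, 0.89, 1.32 and 0.95, with 1 peak in each list. These 3 lower values lay close together and replicate 3 stood above them. TRNF (chrM:577-647, plus strand), the first gene of the plus-strand precursor, was at -0.65, 0.35, 1.17 and -0.19. It changed sign between lists, its mean of 0.17 ± 0.78 (SD, n = 4) became -0.16 without replicate 3, and it was the lowest of the 3 tRNAs in each of them.

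The other tRNA genes with peaks had them in 1 to 3 lists. TRNL2, 1 of the leucine tRNAs, was at 0.65, -0.58 and -0.32 in replicates 1, 2 and 3. TRNH, the histidine tRNA, was at -1.04 and -0.67 in replicates 1 and 3, and TRNV, the valine tRNA that lies between the rRNAs, at -0.18 and -0.55 in replicates 2 and 4. TRNL1, the other leucine tRNA, had a single peak at 0.26 in replicate 1, and TRNG, the glycine tRNA, a single peak at 0.0014 in replicate 2. These few peaks had both signs and none passed a −log10 p of 3. Of the 15 mitochondrial peaks at 1 of the commonest folds of their list, 9 were in tRNA genes.

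**Figure D4:**
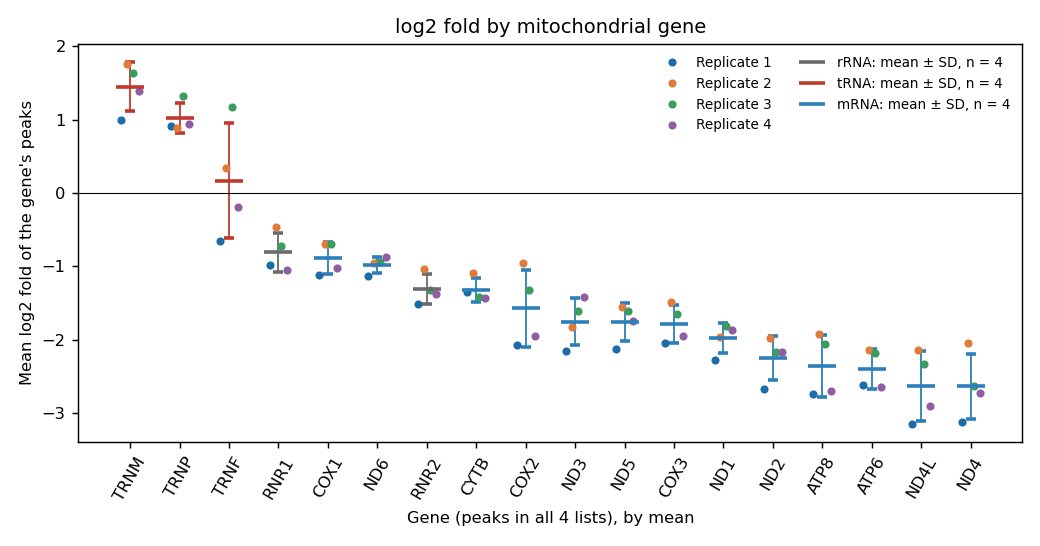
Mean log2 fold of a gene's peaks (vertical axis) for the 18 mitochondrial genes with peaks in all 4 lists, ordered by mean (horizontal axis). Points are the 4 replicates and bars the mean ± SD, coloured by RNA class; TRNM and TRNP lie above 0 in each list, TRNF spans 0, and all rRNA and mRNA points lie below 0.

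All 13 mRNAs were below 0 in all 4 lists, and 290 of their 292 peaks were. The 2 exceptions were in COX1 in replicate 2, chrM:6010-6048 at 0.04 and chrM:6665-6724 at 0.0014. COX1, the catalytic core subunit of complex IV, was the highest mRNA, with 41 peaks and means of -1.11, -0.70, -0.70 and -1.03. COX2, which takes the electrons from cytochrome c, was at -2.07, -0.96, -1.32 and -1.95, and COX3, a structural core subunit, at -2.04, -1.49, -1.66 and -1.95. COX2 spread more between lists than any other mRNA, with an SD of 0.52. CYTB, the cytochrome b of complex III, was at -1.35, -1.09, -1.42 and -1.43.

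The complex I mRNAs reached the lowest values. ND4 was at -3.12, -2.05, -2.64 and -2.73, and ND4L, whose reading frame overlaps that of ND4 on the same mRNA, at -3.15, -2.15, -2.33 and -2.91. Means of -2.25 ± 0.30 for ND2, -1.98 ± 0.21 for ND1, -1.76 ± 0.26 for ND5 and -1.75 ± 0.32 for ND3 (SD, n = 4) followed. ND6, the only complex I mRNA from the minus strand, was higher, at -1.13, -0.96, -0.94 and -0.87. The lowest single peak, at -4.07, was in ND1 in replicate 1. The ATP synthase pair, which also shares 1 mRNA, was close together: ATP6 was at -2.62, -2.14, -2.18 and -2.65, and ATP8 at -2.74, -1.93, -2.06 and -2.70. Reads of the overlapping pairs cannot be told apart where the frames overlap, and peaks were given to the gene at their midpoint.

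Grouped by complex, a grouping chosen after the values were seen, the mRNA peaks averaged -2.39 ± 0.31 for complex V (26 peaks), -2.04 ± 0.26 for complex I (148 peaks), -1.35 ± 0.30 for complex IV (95 peaks) and -1.33 ± 0.16 for complex III, which is CYTB alone (SD, n = 4). Complex IV was above complex I by 0.69 ± 0.17 and complex V below complex IV by 1.04 ± 0.08 (SD, n = 4), each with the same sign in 4 of 4 lists (exact sign-flip p = 0.13, adjusted p = 0.15 over 6 pairs). Complexes III and IV differed by -0.03 ± 0.23 (SD, n = 4), with both signs among the lists (exact sign-flip p = 0.75).

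In the order of the 18 genes, few neighbours were separate. Of 17 neighbouring pairs, 6 had the higher gene higher in all 4 lists: TRNM over TRNP, TRNP over TRNF, TRNF over RNR1, ND6 over RNR2, ND1 over ND2 and ATP6 over ND4L. The other neighbours changed places in at least 1 list, among them RNR2 and CYTB, which differed by 0.01 ± 0.12, and ND4L and ND4, which differed by 0.0011 ± 0.21 (SD, n = 4). The lists themselves were shifted against each other: replicate 1 was lowest in 14 of the 18 genes and replicate 2 highest in 13.

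The strands differed as well. Plus-strand peaks averaged -1.40 ± 0.27 and minus-strand peaks -0.54 ± 0.16 (SD, n = 4), a difference of -0.87 ± 0.17 with the same sign in 4 of 4 lists (exact sign-flip p = 0.13). The minus strand rests on ND6 (15 peaks) and TRNP (4 peaks) alone, so strand and gene cannot be told apart.

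The same places were covered from list to list. A mitochondrial peak shared at least 1 nt and its strand with a peak of another list in 88.8% ± 1.75 of cases (SD, n = 4). For nuclear peaks this was 36.5% ± 0.701 (SD, n = 4). How much overlap the density of peaks alone would give in either group was not tested. Peaks of the 4 lists were merged into regions, and each region with a peak in all 4 lists was tested against 0 with limma across the 49493 such regions of the genome. Pieces that touched without overlapping stayed separate regions, so neighbouring regions can be parts of 1 covered stretch and are not independent of each other. A region took each list's peak with the highest −log10 p, and where all were at 0, as in nearly all mitochondrial regions, the peak with the highest (least negative) fold. These values lay up to 0.46 above the mean of a region's peaks, and with that mean in their place all 65 mitochondrial regions kept their call. Of 65 mitochondrial regions, 51 (78.5%) were lower than the input at an adjusted p (Benjamini-Hochberg, limma) of at most 0.05, where 1.81% of all regions were called lower. Mitochondrial regions were 5.70% of all regions called lower. Only 2 (3.08%) were called higher, where 21.1% of all regions were. Without replicates 1, 4, 2 and 3 in turn, 71, 76, 74 and 69 mitochondrial regions were tested. Lower calls fell to 0, 0, 8 (10.8%) and 11 (15.9%) in that order, and higher calls to 0 in each case. Over the whole genome the same fits called 0, 0, 81 (0.13%) and 150 (0.239%) regions lower, and 0, 0, 1271 and 2470 higher. They tested 64176, 63168, 62378 and 62794 regions in that order. Without replicate 1 or without replicate 4 no region of the genome was called, so the 0 calls there are not particular to mitochondrial regions. Of the 65 regions, 60 were below 0 in all 4 lists, and the share of all regions that were is not given here. Region means had a median of -1.34 over mitochondrial regions and of 0.50 over all regions. The SD between lists had a median of 0.33 over mitochondrial regions and of 0.82 over all regions.

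Regions called lower ranged from -3.23 to -1.0 with a median of -1.81, and 22 were at or below -2. The 3 lowest were all in ND4. At chrM:11219-11319 the values were -3.54, -2.89, -3.23 and -3.24 (adjusted p = 0.0043, limma). At chrM:11125-11181 they were -3.87, -2.57, -3.20 and -2.77 (adjusted p = 0.0057, limma), and at chrM:10920-11000 -3.16, -2.66, -2.68 and -3.24 (adjusted p = 0.0046, limma). Every tested region was called lower in RNR2 (11 regions), ND4 (7), ND5 (6), ATP6 (4), COX2 (4), ND1 (3), ND2 (3), ND4L (2), ND3 (1) and ATP8 (1). Several RNR2 regions lie end to end, such as chrM:1702-1730, chrM:1731-1733 and chrM:1734-1771, so its 11 regions are fewer separate stretches.

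Outside TRNF, the regions not called lay in 5 genes. RNR1 had 1 of 4 regions called lower, COX1 2 of 6, CYTB 2 of 4, ND6 1 of 2 and COX3 3 of 4. The COX1 region nearest to 0, chrM:6008-6054, had -0.24, 0.04, -0.09 and -0.50, and the RNR1 region nearest to 0, chrM:691-815, had -0.32, -0.09, -0.10 and -0.58. Neither was called (adjusted p = 0.59 and 0.47, limma), while other regions of COX1 and RNR1 were called lower. The RNR1 values are those of the least negative peak of each list, and the mean of all 30 peaks there was lower, at -0.61, -0.26, -0.43 and -0.93 (adjusted p = 0.17, limma).

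Both regions called higher were tRNA genes. The TRNM region, chrM:4402-4470 on the plus strand, which ends on the first base of ND2, had 1.00, 1.77, 1.59 and 1.38, a mean of 1.43 ± 0.33 (SD, n = 4; adjusted p = 0.018, limma). The TRNP region, chrM:15962-15996 on the minus strand, had 0.92, 0.89, 1.32 and 0.95, a mean of 1.02 ± 0.20 (SD, n = 4; adjusted p = 0.035, limma). Without 1 list in turn neither was called, with adjusted p (limma) of 0.055 to 0.075 for TRNM and 0.071 to 0.082 for TRNP. Their means stayed between 1.32 and 1.58 and between 0.92 and 1.06. The TRNM peak of replicate 1 and 2 TRNM peaks of replicate 3 sat at commonest folds of their lists. So did the TRNP peak of replicate 3. The highest −log10 p of a TRNM peak was 2.81. The TRNF region, chrM:589-647, came next, with -0.36, 0.36, 1.95 and -0.0005, and was not called (mean 0.49 ± 1.02, SD, n = 4; adjusted p = 0.49, limma). Replicate 3 alone set its mean, which was 1.6e-05 without it. With the mean of its peaks in each list, the region averaged 0.17 (adjusted p = 0.78, limma).

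Nuclear genes tied to the mitochondrion had folds near 0, in a comparison given as values with no test. Peaks of either strand were counted for the nuclear lists, while mitochondrial peaks were matched to the strand of the gene. A list of nuclear respiratory chain and ATP synthase genes (3989 peaks in 93 of 100 genes) averaged 0.08, 0.08, -0.06 and 0.03. Its genes were chosen by the start of their symbols, which does not exclude genes that are not subunits. Nuclear genes of the mitochondrial RNA machinery, such as the RNA polymerase POLRMT and the mRNA-stabilising LRPPRC (1299 peaks in 23 of 23 genes), averaged 0.02, 0.03, -0.10 and -0.13. Both lists lay above the mitochondrial rRNAs and mRNAs in all 4 replicates. Nuclear copies of mitochondrial genes, stretches of mitochondrial sequence inserted into chromosomes (123 peaks in 34 of 487 genes), averaged -0.35, -0.31, -0.46 and -0.62, between the other nuclear lists and the mitochondrial genome. Their median peak was at -0.0009. Of 11 copies with a peak in all 4 lists, 5 were below 0 in each list, such as MTATP6P1 at -2.14, -1.84, -1.65 and -1.48. Only 1 was above 0 in each, MTCO1P19 at 1.00, 0.0014, 0.33 and 1.00, and 5 had both signs. Some of these signs rest on values beside 0, such as the 0.0014 of MTCO1P19 in replicate 2, which other copies share in that list. The side of 0 on which such a common value falls differs between lists. How reads that match both the mitochondrial genome and such copies were handled is not given in the sources used here, and its part in either set of folds was not tested.

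**Figure D5:**
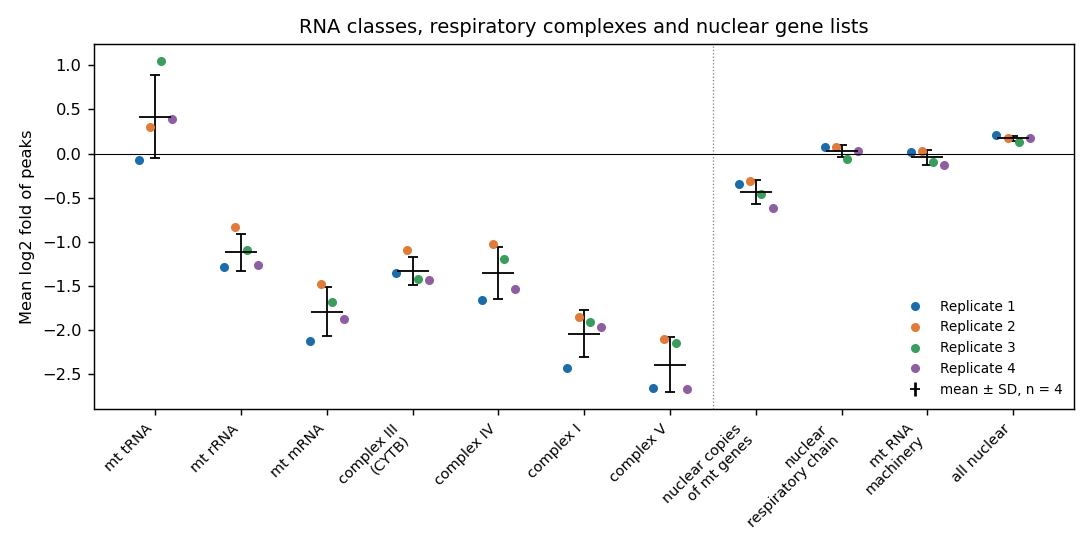
Mean log2 fold of peaks (vertical axis) for mitochondrial (mt) RNA classes and respiratory complexes, left of the dotted line, and for nuclear gene lists and all nuclear peaks, right of it. Points are the 4 replicates and bars the mean ± SD; the mitochondrial rRNA and mRNA groups lie below -0.8 in each list, and the nuclear respiratory chain and RNA machinery lists lie near 0.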

How the data were processed

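The authors deposited 1 peak list per IP sample, without a header, giving coordinates, strand and 2 values. The deposited values were read, from their ranges, as the −log10 of a p-value and the log2 fold of IP over input. The submitters' processing notes name UMI-tools 1.1.1, cutadapt 3.2, STAR 2.7.7a and the builds hg38 and GRCh38.p13. The peak caller, its test and the scaling are not given in the sources used here, and the depth is unknown. Coordinates are 1-based. Gene spans came from the RefSeq table of GRCh38.p14, with strand, class and product of mitochondrial genes added from textbook knowledge. Mitochondrial peaks went to the gene at their midpoint on the same strand. For the nuclear gene lists the midpoint alone was used, with peaks of either strand. Folds were averaged per list and differences tested by exact two-sided sign-flip permutation over the 4 lists. Regions, merged genome-wide by an overlap of at least 1 nt, took each list's peak with the highest −log10 p, ties going to the highest fold, and were tested with limma 3.58.1 in R 4.3.3, intercept only, after a check on simulated data. Each rRNA and mRNA, the tRNAs with peaks in all 4 lists, the 3 highest and 3 lowest regions and all regions called higher were named; other tRNAs and regions were chosen after their values were seen. The members and lists were chosen with earlier results of these data known. The limits of -1 and -1.2 for low folds and the grouping by complex were set after the files were read. Alternatives were medians, weighting by length, a length minimum, other limits and leaving out each list.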

Additional observations from a re-analysis of the deposited data

Results flagged for a closer look

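Of 45 groups of 4 list values examined, 3 had a list standing far from the other 3, and chance alone gives about 1 in 20. The TRNP peak of replicate 3 was highest at a log2 fold of 1.32, where the other lists lay between 0.89 and 0.95; the TRNP region holds the same 4 values and stood out with it. The difference between complex V and complex I peaks was lowest in replicate 4, at -0.70, where the other lists lay between -0.25 and -0.23.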

How the results depend on the processing

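No difference between mitochondrial and nuclear peaks, strands or RNA classes reversed under any alternative run, and of the gene means TRNF alone did, at -0.16 without replicate 3 (-0.16 to 0.44 over the lists left out in turn). The difference between mitochondrial and nuclear peaks ranged from -2.24 (nuclear peaks outside the commonest folds, chosen after seeing the data) to -1.32 (medians). Enriched mitochondrial peaks numbered 3 at a log2 fold of at least 1. Tested against a log2 fold of 1, limma called 16 of 65 mitochondrial regions lower (24.6%, against 0.188% of all regions). It called 0 of them higher, against 2770 of all 49493 regions. Tested against 0 with each list left out in turn, limma called 0 to 11 of 69 to 76 mitochondrial regions lower and 0 higher. At an unadjusted p under 0.05 (limma), the fits without replicates 1 to 4 gave 61, 67, 59 and 66 mitochondrial regions lower. These were out of 71, 74, 69 and 76 tested, and each fit gave 2 higher. The share of all regions at that limit is not given here. In the fits leaving out a list, the smallest adjusted p (limma) of a mitochondrial region was 0.048 to 0.051. The counts of calls there turn on values close to 0.05. Sharing between lists was 69.8% when a peak had to overlap at least 50% of both. Of 126 gene means under alternatives, 124 kept their sign and moved by less than 1 SD, and CYTB moved to -1.13 with the median. The limit for low folds was first set at -1 and then also at -1.2, after the nuclear share at -1 was seen to swing between lists; the mitochondrial share was 67.5% and 56.7%. No paired analysis was possible because IP and input values were not used apart from each other; each fold already pairs them, and differences between groups of peaks were taken within a list. Read counts were not used, so the precision of single peaks is unknown.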
